A study of Mus musculus with 38 samples.

Results

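RNA outside the polysomes was compared between mouse two-cell embryos in interphase and zygotes, in the part of each lysate that sedimented above the polysomes. The members are 6 of the 38 samples of the series, chosen by their titles: the non-polysome (NP) libraries two-cell A, B and C and zygote B, C and D. A further zygote replicate, A, has no column in the deposited table and was not analysed here. Embryos came from superovulated ICR females of at least 6 weeks that had been mated with males of the same strain. Zygotes were taken from the oviducts, and two-cell embryos were grown from zygotes in culture. All were labelled WT, carried no engineered allele and were lysed after cycloheximide, which holds ribosomes on mRNA. Lysates were spun through a sucrose gradient by Scarce Sample Polysome profiling, a polysome method for small samples. The NP pool took the 5 lightest of the 10 gradient fractions, and the polysome (P) pool took the 5 heaviest. The design text calls the replicates biological triplicates and says no more about their origin. The limma p-values rest on the spread between replicates, estimated jointly from 36 libraries in 12 groups of stage and fraction. Values are the FPKM (fragments per kilobase of transcript, scaled to the depth of the library) deposited by the authors, in which every value includes 0.01. That smallest value is called the floor here and stands for no signal.

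The polysome fraction holds mRNA with several ribosomes. The NP fraction holds mRNA that is stored in ribonucleoprotein particles, bound by few ribosomes or newly exported, together with non-coding RNA. An mRNA in NP is therefore not always untranslated. A mouse zygote lives largely on RNA made in the oocyte. Maternal RNA is cleared around the two-cell stage, when the major wave of zygotic genome activation begins, and genes such as the Zscan4 and Usp17l families and MERVL-driven transcripts are switched on for a short time. FPKM values are shares within a library, and the amount of RNA per embryo was not measured. Less of an RNA per embryo and more of the other RNA therefore cannot be told apart.

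The 3 two-cell NP libraries were less deep and less alike than the zygote NP libraries. The depth, estimated from the smallest steps between FPKM values, was 13200000 to 20800000 fragments for two-cell NP and 22300000 to 26000000 fragments for zygote NP. Only 40.9% to 56.3% of the low values lay within 0.1 of a whole fragment, so this depth is an approximation. At these depths 3 fragments in a transcript of 1000 bases correspond to 0.144 to 0.228 FPKM in two-cell NP and to 0.116 to 0.135 FPKM in zygote NP, a limit for counting error only. Genes above 0.1 FPKM numbered 7323 ± 641 (SD, n = 3) in two-cell NP and 10445 ± 73.2 (SD, n = 3) in zygote NP. At 1 FPKM, which is above that limit in every library, they numbered 4429 ± 304 and 5010.3 ± 3.21, a smaller difference of -581 against -3122. Neither pair of ranges overlapped (two-sided exact permutation p = 0.1 for each, the smallest that 3 libraries against 3 allow). Pearson's r across genes between replicates was 0.584 to 0.643 in two-cell NP and 0.856 to 0.890 in zygote NP. Of 2018 tested genes with at least 10 FPKM in 1 two-cell NP library, 365 (18.1%) were at 0.1 or less in another, against 7 of 1702 (0.411%) in zygote NP, so a single low two-cell value is weak evidence. In the P fraction of the same stages these shares were 2.22% and 0%.

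In the values as deposited, NP RNA fell at more genes than it rose from zygote to two-cell. Log2 FPKM was fitted with limma for the 7967 genes whose geometric mean reached 0.1 FPKM, and a gene was called at a Benjamini-Hochberg adjusted p under 0.05 and a change beyond 2-fold. Of the genes tested, 525 (6.59%) were called higher in two-cell NP and 2198 (27.6%) lower, 34.2% in all, with a median log2 fold change of -1.61 over all genes tested. The balance depends on the scaling: centring each library on its median gave 869 higher and 1216 lower at a median of -0.49, and quantile normalization gave 1341 higher and 1185 lower at a median of -0.08. Of the calls, 327 higher and 1210 lower held in all 6 fits that left out 1 of the 6 libraries. In P, the same fit called 490 genes (6.15%) higher and 782 (9.82%) lower. With limma array weights, which give each library its own weight, NP had 253 higher and 1610 lower and P had 711 higher and 2352 lower, so the excess of falls in NP over P turned round. In NP, the two-cell libraries were wholly above the zygote libraries for 981 genes tested (12.3%) and wholly below for 2739 (34.4%). The genes higher in both fractions were 336, which is 64.0% of the NP calls and 68.6% of the P calls. Those lower in both were 463, which is 21.1% of the NP calls and 59.2% of the P calls.

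**Figure D1:**
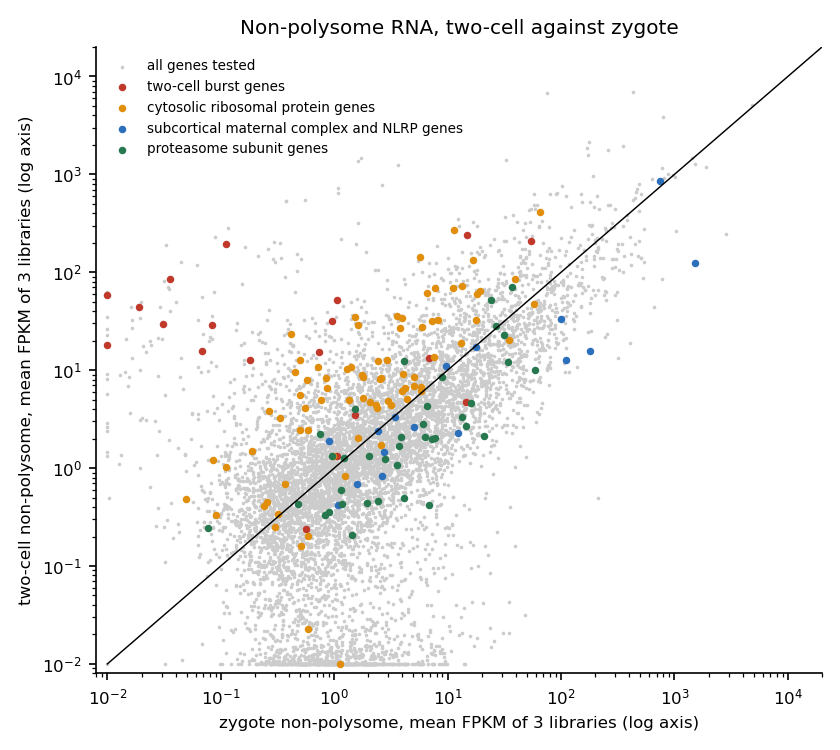
Mean FPKM of 3 libraries in zygote NP (x axis) and two-cell NP (y axis), both log axes, for each of the 7967 genes tested, with 4 lists in colour and the line of equal levels. Most burst and ribosomal protein genes lie above the line, and a band of genes lies at the floor of two-cell NP.

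The genes that mark the two-cell stage made up the clearest rise. These 48 genes of the table, here called burst genes, are known from the first strong wave of embryonic transcription. Summed over the list, they held 993 to 1537 FPKM in the two-cell NP libraries and 70.1 to 129 FPKM in the zygote NP libraries. Of 19 that passed the minimum, 12 were called higher and 0 lower (0 lower also at an unadjusted limma p under 0.05). In P, 5 were called higher and 0 lower, beside 6.15% and 9.82% of all genes tested. The median log2 fold change was 6.07 against -1.61 over all genes tested, and 7.22 under quantile normalization against -0.08. Its size rests on the 0.01 added to zygote values near the floor. With 1 added to each FPKM the median was 3.67 against -0.34, with 13 called higher and 1 lower. The 4 members that reached a geometric mean of 1 FPKM had a median of 1.33, and 0 of the 4 were called in that fit. The minimum counts the two-cell libraries, so a burst gene low at other stages passes only by its two-cell level. The count of 12 of 19 and the median of 6.07 therefore follow in part from the minimum. Those that passed are not the whole list, and many others lacked zygote signal: 19 of the 48 were at the floor in all 3 zygote NP libraries. A mean of at least 5 FPKM was reached by 29 of the 48 in two-cell NP and by 4 in zygote NP. With no minimum, 27 of the 48 were called higher and 0 lower, beside 995 (4.30%) and 3166 (13.7%) of 23125 genes.

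The upstream sequences of the Zscan4 genes, which encode zinc finger proteins linked to telomere maintenance, are shown because these genes share a pair of motifs in nearly the same stretch. The sequences are those of RefSeq on GRCm38.p6, 5′ to 3′ on the gene's strand. Capitals in the first line mark a match, on the other strand, to TGATT followed by any 2 bases and ATCA, a form of the sequence bound by the homeodomain protein DUX. Capitals in the other lines mark TATAAA, the core of the TATA box. The first line, given for Zscan4d, is the same in Zscan4c and Zscan4f at 30 of 30 bases.
Zscan4d, DUX-type motif, chr7:11166244-11166273 (-): TGATAGAATCActgtgtgaatttaatcgtc
Zscan4c, TATAAA, chr7:11005667-11005696 (+): aactgactaacggaagccaggcgcTATAAA
Zscan4d, TATAAA, chr7:11166208-11166237 (-): aaccgactaacggaagccaggggcTATAAA
Zscan4f, TATAAA, chr7:11397860-11397889 (+): aactgactaacggaagccaggcgcTATAAA

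In each of the 3 genes 49 bases separate the motifs. From the first motif through TATAAA, Zscan4c and Zscan4f match Zscan4d at 64 of 66 bases. TATAAA starts 31 bases before the annotated start of Zscan4f, 54 before that of Zscan4c and 65 before that of Zscan4d. In the 250 bases upstream, searched on both strands, TATAAA was found for 10 of the 25 burst genes with a RefSeq promoter (40%) and for 14.3% of 27025 RefSeq symbols. These 10 are copies within 3 families, 4 of them Zscan4 and 3 Usp17l genes, and are not independent. The DUX-type motif was found for 4 of the 25 (16%), all of them Zscan4 genes (Zscan4b, Zscan4c, Zscan4d and Zscan4f), and for 0.207% of RefSeq symbols. GGGCGG, the GC box letters, was found for 2 of the 25 (8%), for 35.4% of RefSeq symbols and for 62.9% of the tested genes with a promoter. Other motifs searched were CCAAT, in 14 of the 25 (56%) and 37.5% of RefSeq symbols, and GGATTA, in 6 (24%) and 7.21%. AAGGTCA was found for 4 (16%), the same Zscan4 genes, and 4.70% of RefSeq symbols, and TGACGTCA for 0 and 1.77%. Promoters matched 5241 of the 7967 genes tested, and a match describes letters only.

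Zscan4f had 2.44, 15.7 and 36.2 FPKM in two-cell A, B and C and was at the floor in all zygote NP libraries (limma, Benjamini-Hochberg adjusted p = 0.000155). Zscan4c had 4.12, 21.2 and 12.3 FPKM in two-cell NP and 0.0171, 0.0438 and 0.482 FPKM in zygote B, C and D (adjusted p = 0.00419). Zscan4d had 42.3, 18.6 and 34.8 FPKM in two-cell NP and 1.52, 1.34 and 0.0183 FPKM in zygote NP (adjusted p = 0.0427). No two-cell library overlapped a zygote library for any of the 3, though their order within the two-cell stage differed from gene to gene. The call for Zscan4d was lost without zygote D (adjusted p = 0.229) and without any one of the 3 two-cell libraries (0.0707 to 0.0929). The Zscan4, Usp17l, Tdpoz and Pramef genes have near-identical copies among which reads can be split, so the level of a single copy is uncertain.

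Usp17lb belongs to a family of deubiquitinating enzymes. It ranked first by fitted rise among called protein-coding genes that reached 10 FPKM without overlap, a rank that rests on the floor and was not kept under quantile normalization, with 41.7, 33.2 and 99.7 FPKM in two-cell NP and the floor in all zygote NP libraries (adjusted p = 7.67e-05). Part of its upstream sequence is printed because TATAAA, in capitals, starts 31 bases before the annotated start, as in Zscan4f.
Usp17lb, TATAAA, chr7:104842609-104842638 (-): gtaggcgtggccacaaaactgaagTATAAA

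The other leading rises were on the same scale. Hba-a1 and Rpl9-ps6 ranked next after Usp17lb by the same rule, and their values are given below with other-cell markers and pseudogenes. AF067061 had 313, 152 and 115 FPKM in two-cell NP and at most 0.286 in zygote NP (adjusted p = 4.69e-06). Gm5662 had 81.3, 51.8 and 122 FPKM against at most 0.0669 (adjusted p = 1.54e-09). Obox8, a homeobox gene of the Obox family, had 59.0, 93.3 and 60.3 FPKM against at most 0.0829 (adjusted p = 2.99e-11). Each of these two-cell libraries was above every zygote library. B020004C17Rik, with 163 to 282 FPKM, and the ferritin-like gene Fthl17c, with 23.7 to 55.5 FPKM, were also called higher against at most 0.181 FPKM and the floor. Gm2016 (28.6 to 64.2 FPKM) and Gm4340 (19.5 to 34.7 FPKM) were called higher against at most 0.0423 FPKM.

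Members of the list with RNA already in the zygote differed less clearly. Tcstv3 had 364, 214 and 151 FPKM in two-cell NP and 22.7, 12.8 and 9.24 FPKM in zygote NP, a log2 fold change of 4.03 ± 1.69 (SE) that missed the threshold (adjusted p = 0.0644) but passed it under quantile normalization (0.0135). Tcstv1 had 145 to 288 FPKM against 37.5 to 77.8 FPKM (log2 fold change 1.93 ± 1.53, adjusted p = 0.341). Neither gene's groups overlapped. Over the 48 genes, 29 had two-cell NP libraries wholly above zygote NP and 1 wholly below, beside 6.43% and 21.5% of all 23125 genes.

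**Figure D2:**
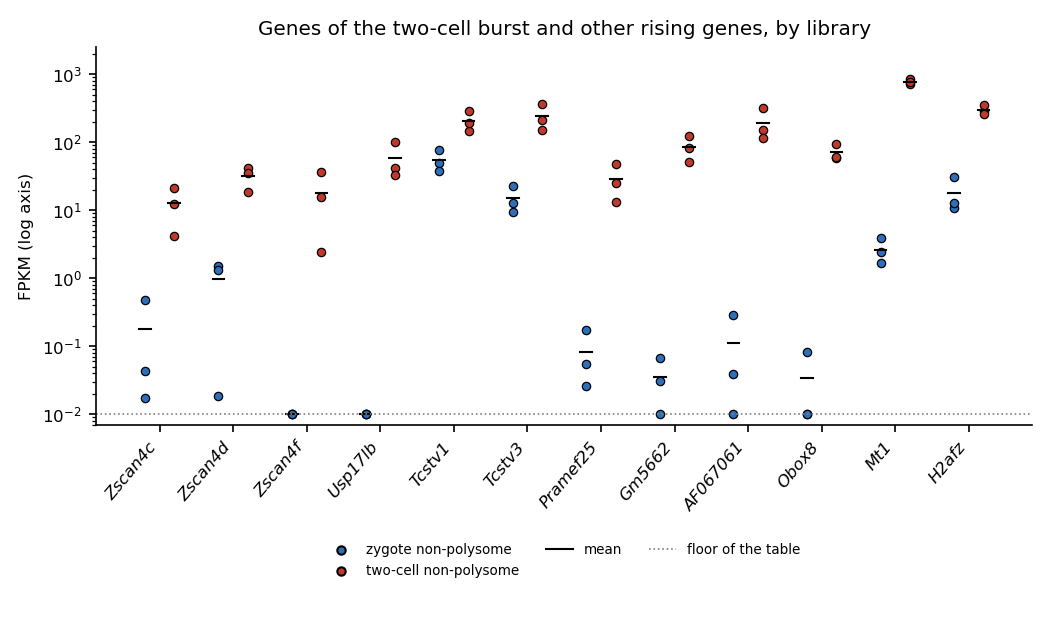
FPKM on a log axis of burst genes, Obox8, Mt1 and H2afz in the zygote (blue) and two-cell (red) NP libraries, 1 point per library, with a bar at the mean of 3. All two-cell points lie above the zygote points of the same gene, and the zygote points of Zscan4f and Usp17lb are at the floor of 0.01 FPKM.

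RNA for ribosomal proteins rose in the NP fraction. Summed over 82 genes for cytosolic ribosomal proteins, it held 2109.7 to 2117 FPKM in the two-cell NP libraries and 427 to 508 in the zygote NP libraries. The same sum in P was 551 to 907 FPKM at the two-cell stage and 260.0 to 312 in zygotes. Of 79 genes tested, 36 (45.6%) were called higher in NP and 3 (3.8%) lower, beside 6.59% and 27.6% of all genes tested, with a median log2 fold change of 1.98 against -1.61 over all genes tested. Under quantile normalization 51 were higher and 1 lower, beside 1341 and 1185 of all genes tested (median 2.65 against -0.08). In P, 22 were called higher and 3 lower, beside 490 (6.15%) and 782 (9.82%) of all genes tested. A difference between the changes in NP and P was called for 0 of the 79 in either direction, beside 0.163% and 1.27% of all genes tested. Leaving out any one library gave 29 to 32 called higher. The two-cell NP libraries were wholly above the zygote ones for 49 of the 82 genes and wholly below for 5, beside 6.43% and 21.5% of the 23125 genes of the table.

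Rpl41, which encodes the smallest protein of the large subunit (chr10:128548114-128549305 in the deposited GRCm38 table), had 263, 271 and 272 FPKM in two-cell NP and 13.7, 7.92 and 12.7 FPKM in zygote NP. The two-cell values were close together and all above the zygote values, a log2 fold change of 4.59 ± 0.51 (SE; adjusted p = 1.71e-07). Rplp1, a protein of the ribosomal stalk, had 187, 141 and 97.9 FPKM against 6.93, 3.73 and 6.37 FPKM (4.64 ± 0.56, adjusted p = 4.92e-07). Rplp0, which anchors that stalk, had 402, 323 and 514 FPKM against 66.1, 54.5 and 76.3 FPKM (2.64 ± 0.32, adjusted p = 4.92e-07). Rpl37a had 43.5, 35.5 and 25.4 FPKM against 1.90, 0.510 and 2.13 FPKM (4.74 ± 0.57, adjusted p = 4.92e-07). For all 4 genes the stages did not overlap.

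Not every member behaved alike. Rpl36al had 59.4 to 109 FPKM against 39.1 to 40.0 FPKM and was not called (adjusted p = 0.186). The 3 called lower were Rpl11, Rpl22 and Rpl22l1, named here after their values were seen. All were scarce: Rpl22l1 was at the floor in two-cell NP against 0.935 to 1.25 FPKM (adjusted p = 0.0110), Rpl22 had at most 0.0306 against 0.298 to 0.890 FPKM (adjusted p = 0.000325), and Rpl11 had at most 0.240 against 0.418 to 0.569 FPKM (adjusted p = 0.0127). The call for Rpl11 was lost without two-cell B (adjusted p = 0.182). Ribosomal protein genes have many near-identical processed pseudogenes. Of 71 tested genes named as such pseudogenes, 19 (26.8%) were called higher and 4 (5.63%) lower, beside 11.1% and 14.0% of 891 processed pseudogenes and 6.59% and 27.6% of all genes tested, and Rpl9-ps6 alone had 231, 48.4 and 80.5 FPKM against at most 0.164 (adjusted p = 2.89e-06), so the split of reads between parents and copies is uncertain.

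**Figure D3:**
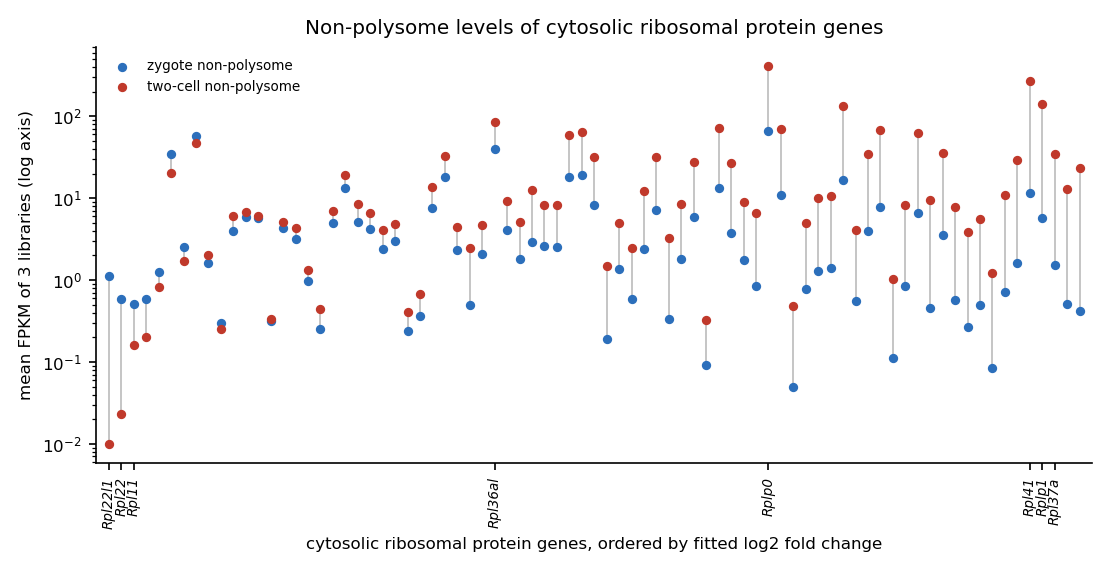
Mean FPKM (log axis) of the 79 ribosomal protein genes tested, in zygote NP and two-cell NP, joined by a line for each gene and ordered by the fitted change, with the genes described here named. For 67 of the 79 the fitted change is upwards, and the 3 genes called lower are the first 3 from the left.

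Other genes of the machinery for making and processing RNA did not all move alike. RNA polymerase II subunits and general transcription factors had 8 of 28 tested genes (28.6%) higher and 1 (3.57%) lower, beside 6.59% and 27.6% of all genes tested (median -0.23, and 1.56 under quantile normalization). Polr2h, a small subunit shared by the 3 nuclear polymerases, had 24.3, 28.3 and 14.7 FPKM in two-cell NP and 2.69, 1.68 and 2.04 FPKM in zygote NP (log2 fold change 3.36 ± 0.56, adjusted p = 4.58e-05). The groups were well apart. Polr2f rose by 2.47 ± 0.46 (adjusted p = 0.000195), Polr2j by 2.09 ± 0.42 (adjusted p = 0.000474) and Polr2l by 1.79 ± 0.48 (adjusted p = 0.00513) on the log2 scale. Polr2d had 10.9 to 24.2 FPKM against 36.9 to 43.6 FPKM and was not called (adjusted p = 0.110). Gtf2b, the gene for the initiation factor TFIIB and the 1 member called lower, had 4.80, 0.0670 and 6.05 FPKM against 8.25 to 18.7 FPKM (adjusted p = 0.0357). Two-cell B decided that call, since without it the adjusted p was 0.415, and it was lost without any one zygote library too (0.0536 to 0.108).

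Among 53 tested spliceosome genes, 9 (17.0%) were higher and 8 (15.1%) lower, beside the same 6.59% and 27.6% (median -0.65, and 0.31 under quantile normalization, where 14 were higher and 0 lower). The genes higher included Sm proteins, which form the ring around spliceosomal snRNAs. Snrpg had 15.0, 17.6 and 13.2 FPKM against 1.75, 1.19 and 1.07 FPKM (3.54 ± 0.53, adjusted p = 1.27e-05) with no overlap. Snrpd2 rose by 3.85 ± 0.88 (adjusted p = 0.00141), and Sf3b5, a small subunit of the SF3b complex, by 1.73 ± 0.43 (adjusted p = 0.00291). The splicing factor Srsf2, with 59.7 to 87.3 FPKM against 77.5 to 109.7 FPKM, overlapped and was not called (adjusted p = 0.512).

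Nucleolar genes for ribosome biogenesis had 6 of 49 tested genes (12.2%) higher and 13 (26.5%) lower, the latter close to the 27.6% of all genes tested (median -1.21). That balance turned under quantile normalization, to 11 higher and 6 lower at a median of 0.68. Nop16, a nucleolar protein, had 52.0, 36.3 and 32.6 FPKM in two-cell NP and at most 0.0427 in zygote NP (adjusted p = 3.05e-06). Rpp25, a subunit of RNase P and MRP, had 89.5, 41.2 and 55.7 FPKM against at most 0.105 (adjusted p = 2.18e-05). Both were near the floor in every zygote library and above 30 FPKM in every two-cell library. Nop10, of the H/ACA particles that guide pseudouridylation, had 261, 171 and 191 FPKM against 67.7, 48.8 and 48.1 FPKM (1.91 ± 0.37, adjusted p = 0.000313).

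Translation initiation and elongation factors had 2 of 51 tested genes (3.92%) higher and 8 (15.7%) lower, both under the shares of all genes tested (median -0.34, and 0.91 under quantile normalization with 10 higher and 3 lower). Eif4ebp1, the inhibitor of the cap-binding protein eIF4E, had 8.95, 4.21 and 6.56 FPKM against 0.454, 0.225 and 0.812 FPKM (adjusted p = 0.00887). Pabpc1, the cytoplasmic poly(A)-binding protein, was the other gene called higher, with 0.843, 6.49 and 2.38 FPKM against at most 0.255 (adjusted p = 0.0155), a call lost without two-cell B (0.0717) or zygote C (0.117). Eif1, which acts in start codon selection, had 285 to 317 FPKM against 182 to 191 FPKM with no overlap and an adjusted p of 0.0293, but its log2 fold change of 0.69 ± 0.24 was under the 2-fold limit. Its relative Eif1b was called lower, with 54.7 to 76.9 FPKM against 206 to 274 FPKM (-1.94 ± 0.66, adjusted p = 0.0233), a call lost without two-cell B (0.0677), zygote C (0.0616) or zygote D (0.0671).

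Nuclear genes of oxidative phosphorylation were called in both directions, with 10 of 74 (13.5%) higher and 14 (18.9%) lower (median -0.91), beside 6.59% and 27.6% of all genes tested. The balance turned to 13 higher and 11 lower under quantile normalization and to 12 higher and 9 lower with median centring (median 0.21). Cox8a, a small subunit of cytochrome c oxidase, had 1099, 1052 and 766 FPKM against 272, 112 and 191 FPKM (2.42 ± 0.40, adjusted p = 5.19e-05). Uqcrq, a small subunit of complex III, rose by 2.35 ± 0.48 (adjusted p = 0.000505). Uqcrc2, a core protein of the same complex, had 1.76, 0.0131 and 0.0159 FPKM against 6.79 to 8.06 FPKM and was called lower (adjusted p = 0.000164). The table holds no mitochondrially encoded gene.

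**Figure D4:**
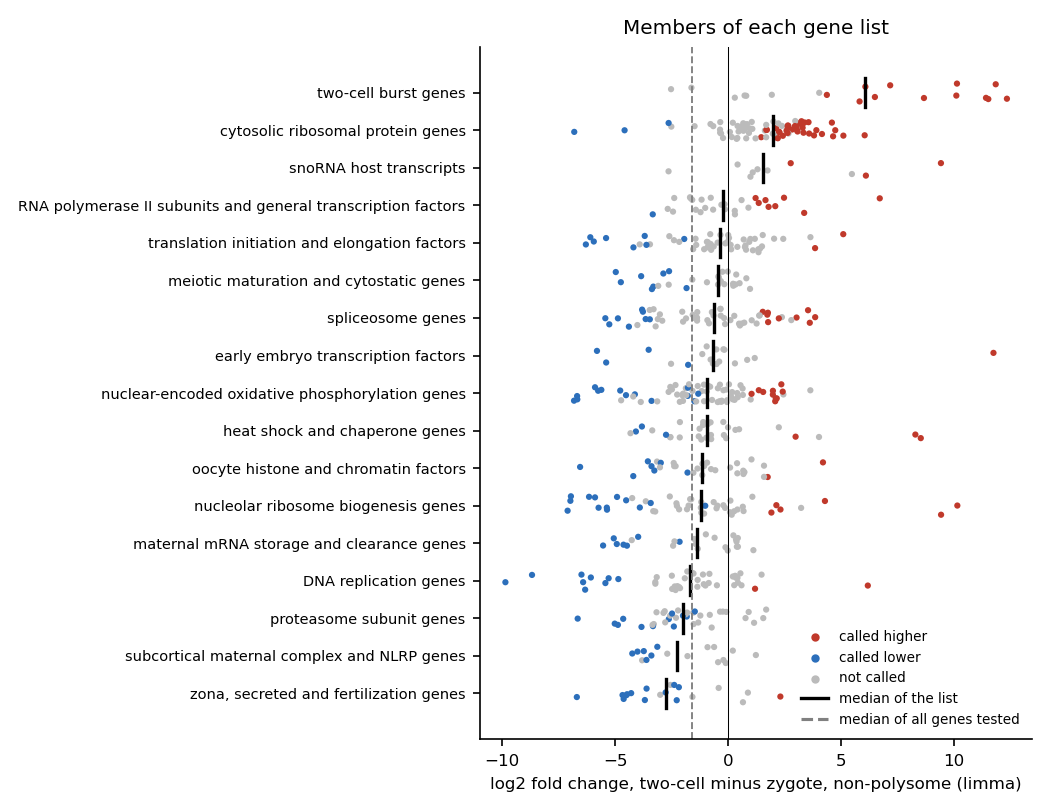
Log2 fold change of two-cell NP over zygote NP for each tested gene of the lists, 1 point per gene with the median of each list marked. Burst genes (median 6.07) and ribosomal protein genes (1.98) lie to the right of the median of all genes tested (-1.61).

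Lists of genes known for their RNA in the oocyte differed in how they stood against all genes tested, of which 27.6% were called lower. Of 19 tested genes for the zona pellucida, secreted and fertilization proteins, 12 (63.2%) were called lower and 1 higher (median -2.77). Quantile normalization gave 11 lower and 1 higher (median -2.55), but median centring gave 5 lower and 2 higher (median -1.64 against -0.49 over all genes tested). Zp1 and Zp3 encode proteins of the egg coat. Zp3 had 7.95, 1.06 and 24.9 FPKM in two-cell NP and 70.9, 61.5 and 102 FPKM in zygote NP (-3.68 ± 0.88, adjusted p = 0.00211), and Zp1 fell by 4.29 ± 0.82 on the log2 scale (adjusted p = 0.000251). Bmp15, an oocyte growth factor, had 71.8, 219 and 171 FPKM against 391 to 451 FPKM, below them in every library but not called (-1.58 ± 0.67, adjusted p = 0.0681), though it was under quantile normalization (adjusted p = 0.00335).

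The 1 gene of that list called higher was Tcl1, a coactivator of the kinase AKT that oocytes make in large amounts. It had 4619, 3845 and 3227 FPKM in two-cell NP and 1019, 689 and 668 FPKM in zygote NP (2.31 ± 0.56, adjusted p = 0.00252), with no overlap, and it too rose in P, from 226 to 279 FPKM to 1285 to 1468 FPKM. The sum of its list was 3617 to 4958 FPKM in two-cell NP, most of it Tcl1, and 1817 to 2238 FPKM in zygote NP, although most genes of the list fell. Its NP mean was 2513 ± 478 FPKM (SD, n = 3) in GV oocytes, 1459 ± 348 in MII oocytes, 792 ± 197 in zygotes, 3659.7 ± 167 in zygotes held in M-phase with nocodazole, 3897 ± 698 in two-cell embryos and 39.6 ± 36.9 in two-cell embryos held in M-phase.

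The subcortical maternal complex, a protein assembly under the egg membrane that embryos need to pass the two-cell stage, had with the NLRP genes 6 of 16 tested members (37.5%) lower and 0 higher (median -2.25; 8 lower and 0 higher at an unadjusted limma p under 0.05). Quantile normalization gave 4 lower and 1 higher, and median centring 1 lower. Ooep (chr9:78376109-78378725) had 142, 61.8 and 170.3 FPKM in two-cell NP and 1404, 1575 and 1582 FPKM in zygote NP (-3.73 ± 0.42, adjusted p = 1.70e-07). Tle6 had 8.95 to 23.5 FPKM against 154 to 197 FPKM (-3.61 ± 1.0, adjusted p = 0.00677), and Padi6 had 10.7 to 14.3 FPKM against 108 to 114 FPKM (-3.13 ± 0.85, adjusted p = 0.00568). For these 3 genes every two-cell library was under every zygote library. Zbed3 stayed high, with 925, 892 and 769 FPKM against 779, 738 and 718 FPKM (0.21 ± 0.42, adjusted p = 0.733), and it turned to -0.86 under quantile normalization.

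Genes that store and clear maternal mRNA had 7 of 24 tested members (29.2%) lower and 0 higher (9 lower and 0 higher at an unadjusted limma p under 0.05). That share is near the 27.6% of all genes tested, and the median of -1.39 is above -1.61. Quantile normalization gave 3 higher and 7 lower. Zar1, an RNA-binding protein of the oocyte, had 7.54, 15.9 and 16.8 FPKM against 361, 236 and 360.2 FPKM (-4.63 ± 0.63, adjusted p = 3.42e-06). Pabpn1l, a poly(A)-binding protein needed for maternal RNA clearance, had 17.2, 12.8 and 26.4 FPKM against 355, 408 and 444 FPKM (-4.48 ± 0.89, adjusted p = 0.000379). Btg4, an adaptor for the CCR4-NOT deadenylase that takes part in the same clearance, did not follow them: 8.96, 36.6 and 26.3 FPKM overlapped 20.8, 26.0 and 16.4 FPKM (-0.02 ± 0.55, adjusted p = 0.987).

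Genes of meiotic maturation had 8 of 26 tested members (30.8%) lower and 0 higher, also at an unadjusted limma p under 0.05. The share is near that of all genes tested, and the median was -0.44 against -1.61 and turned to 0.69 with median centring. Plk1, a mitotic kinase, had 18.7, 1.16 and 21.2 FPKM against 77.4 to 82.3 FPKM (-3.37 ± 0.76, adjusted p = 0.00126), and Aurkc, the meiotic Aurora kinase, fell by 2.61 ± 0.54 (adjusted p = 0.000580). Mos, the kinase that keeps MII oocytes arrested, had 53.8, 0.0621 and 7.12 FPKM against 71.9 to 84.1 FPKM (adjusted p = 0.0122), and without two-cell B it was not called (adjusted p = 0.2). Pttg1, or securin, stayed abundant, with 991, 1012 and 804 FPKM against 1532, 674 and 805 FPKM (-0.01 ± 0.37, adjusted p = 0.982).

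Proteasome subunits had 12 of 37 tested genes (32.4%) lower and 0 higher, again near the 27.6% of all genes tested (median -2.00 against -1.61; 15 lower and 1 higher at an unadjusted limma p under 0.05), although with median centring 1 was lower and 3 were higher. Psmb2, a catalytic core subunit, had 5.90, 3.93 and 3.99 FPKM against 15.7, 15.2 and 17.5 FPKM (-1.83 ± 0.43, adjusted p = 0.00168), and Pomp, a chaperone of proteasome assembly, fell by 2.00 ± 0.44 (adjusted p = 0.00109). Psmb6 went the other way in values, with 55.7, 127 and 31.6 FPKM against 51.4, 29.4 and 29.9 FPKM, but overlapped (adjusted p = 0.196).

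DNA replication genes had 9 of 42 tested members (21.4%) lower and 2 (4.76%) higher, both shares below those of all genes tested (27.6% and 6.59%), with a median of -1.70 against -1.61. Rfc3, of the clamp loader, was at the floor in all two-cell NP libraries against 7.22, 12.7 and 8.62 FPKM in zygote NP (adjusted p = 2.60e-05). Fen1, the flap endonuclease, had 0.0308, 0.445 and 0.01 FPKM against 19.2, 23.5 and 20.8 FPKM (adjusted p = 7.98e-05). The 2 called higher were cyclins: Ccne1 had 18.2, 17.1 and 10.0 FPKM against 0.0646, 0.354 and 0.358 FPKM (adjusted p = 0.00149), and Ccna2 had 52.7, 20.8 and 51.4 FPKM against 18.8, 22.8 and 11.1 FPKM (1.19 ± 0.45, adjusted p = 0.0420). Ccna2 overlapped between stages, and leaving out two-cell A (adjusted p = 0.148), two-cell C (0.131), zygote B (0.0667) or zygote D (0.193) ended its call.

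Histone and chromatin genes had 2 of 31 tested members (6.45%) higher and 7 (22.6%) lower, close to the 6.59% and 27.6% of all genes tested (median -1.14). Under quantile normalization 5 were higher and 5 lower, and with median centring 5 were higher and 2 lower. H2afz, a histone H2A variant, had 288, 349.6 and 259 FPKM in two-cell NP and 30.5, 10.7 and 12.9 FPKM in zygote NP (4.2 ± 0.54, adjusted p = 1.27e-06), all two-cell libraries being above all zygote libraries. Cenpa, the centromeric histone, was the other called higher, with 60.3, 11.2 and 63.9 FPKM against 8.37 to 13 FPKM (1.75 ± 0.54, adjusted p = 0.0141). It overlapped, and the call was lost without two-cell A (0.0821), two-cell C (0.0808) or zygote D (0.0572). Zfp57, which keeps imprints methylated, had 3.41 to 9.06 FPKM against 37.9 to 62.9 FPKM (-2.98 ± 0.69, adjusted p = 0.00168).

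Early embryo transcription factors had 1 of 19 tested members higher, Obox8, and 4 lower, Obox2, Gata4, Tcf3 and Ctnnb1. These shares, 5.26% and 21.1%, are near the 6.59% and 27.6% of all genes tested. Obox2 had 6.51 to 14.2 FPKM against 22.9 to 47.8 FPKM (-1.77 ± 0.57, adjusted p = 0.0179), and the call was lost without two-cell B (0.0892), zygote B (0.0742) or zygote C (0.0607). Gata4, Tcf3 and Ctnnb1 had at most 1.95 FPKM in any of these libraries. Tcf3 and Ctnnb1 were not called without two-cell A (0.0529 and 0.0563) or two-cell B (0.0574 and 0.0664). Obox5 had 151, 216 and 164 FPKM against 75.9, 99.5 and 60.9 FPKM, without overlap but not called (1.18 ± 1.01, adjusted p = 0.383).

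The metallothioneins rose most among heat shock and stress genes. Mt1 (chr8:94179082-94180327), which binds zinc and copper, had 834, 714 and 775 FPKM in two-cell NP and 2.39, 3.84 and 1.65 FPKM in zygote NP (8.28 ± 0.72, adjusted p = 1.88e-09). Its neighbour Mt2 had 144, 93.1 and 175 FPKM against 0.985, 0.110 and 0.437 FPKM (adjusted p = 5.92e-06). Both were also higher in P, where Mt1 had 201 to 325 FPKM against 0.0790 to 0.903 FPKM. Two-cell embryos had been cultured and zygotes had not, so stage and culture cannot be told apart for any gene of this comparison. Zygotes in M-phase, which were treated with nocodazole and not collected at isolation, had 0.530 ± 0.129 FPKM of Mt1 and 0.513 ± 0.660 FPKM of Mt2 in NP (SD, n = 3). Those embryos also differ from two-cell embryos in cell cycle phase and drug treatment, and the part of culture was not tested. Hspb1, a small heat shock protein, had 91.0 to 102 FPKM against 9.87 to 15.2 FPKM (2.99 ± 0.93, adjusted p = 0.0145), with an adjusted p of 0.0509 without zygote C. The list had 3 of 30 tested genes (10.0%) higher and 3 lower (median -0.93), beside 6.59% and 27.6% of all genes tested. Quantile normalization gave 5 higher and 1 lower, and median centring 4 higher. The 3 lower were Hspa14, Hsp90aa1 and Hsph1, of which Hsp90aa1 had 2.48 to 6.12 FPKM against 22.0 to 29.8 FPKM (-2.75 ± 1.0, adjusted p = 0.0351). Each of these 3 lower calls was lost in 5 or 6 of the 6 fits that left out a library.

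Host transcripts of small nucleolar RNAs had 3 of 10 tested members (30%) higher, Snhg9, Snhg15 and Zfas1, and 0 lower, beside 6.59% and 27.6% of all genes tested (median 1.52 against -1.61; 4 higher and 0 lower at an unadjusted limma p under 0.05). Snhg9 had 2.90, 9.04 and 12.2 FPKM and was at the floor in all zygote NP libraries (adjusted p = 7.83e-07). Snhg15 had 6.21, 20.4 and 11.3 FPKM against 0.0353, 0.237 and 0.534 FPKM (adjusted p = 0.000952). Zfas1 had 2.03, 9.06 and 3.82 FPKM against 0.393 to 0.825 FPKM (adjusted p = 0.0115), which was lost without two-cell B (0.0685) or zygote B (0.0524).

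The largest falls ended near the floor in NP, while most of these genes still had a few FPKM in P. Txnip (chr3:96557957-96561883), an inhibitor of thioredoxin, had 1.38, 0.01 and 0.0958 FPKM in two-cell NP and 239.8, 217 and 172 FPKM in zygote NP (adjusted p = 3.52e-09). Its P values were 10.3, 5.47 and 12.5 FPKM against 311, 217 and 260.2 FPKM. Surf1, an assembly factor of cytochrome c oxidase, had at most 0.0266 FPKM in two-cell NP against 28.8, 35.5 and 39.6 FPKM (adjusted p = 5.51e-09), but 3.53, 4.44 and 6.11 FPKM in two-cell P. Slc16a13, a monocarboxylate transporter, had at most 0.0438 FPKM against 51.3, 49.8 and 42.9 FPKM (adjusted p = 6.44e-10), and 9.38, 7.30 and 13.4 FPKM in two-cell P. Arxes1 was at the floor in two-cell NP against 10.6 to 16.3 FPKM (adjusted p = 3.58e-05), while its two-cell P values, 9.42 to 13.4 FPKM, lay below the 16.6 to 19.6 FPKM of zygote P. Fam84a, Tmem42 and Cyb561d2 had at most 0.0320 FPKM in two-cell NP and 3.20 to 11.5 FPKM in two-cell P, whereas Mageh1 was low in both (at most 1.90 FPKM in P).

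The change in NP was set against the change in P by a contrast of the 2 differences in the same limma fit. It called 13 genes (0.163%) with a higher change in NP and 101 (1.27%) with a lower one. This split depends on the added constant and the minimum. With 1 added to each FPKM it turned to 107 higher and 91 lower, and with no minimum it was 66 and 103. Of the 101, 78 were at 0.1 FPKM or less in all two-cell NP libraries, and 32 of those 78 had at least 1 FPKM in all two-cell P libraries. Among genes with at least 10 FPKM in all zygote NP libraries, 17 of 1219 (1.39%) were at 0.1 FPKM or less in all two-cell NP libraries. The matching count in P was 0 of 1101 genes. The count of 114 in all rests on single libraries, running from 40 without zygote D to 295 without two-cell C, with 52 without zygote B, 68 without zygote C and 195 without two-cell A.

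A few listed genes with RNA in every library moved apart between fractions. Cdc20, an activator of the anaphase-promoting complex, overlapped in NP, with 39.0, 53.8 and 51.9 FPKM against 34.0, 47.2 and 43.0 FPKM, while in P it had 23.0, 35.9 and 23.4 FPKM against 2.02, 3.37 and 1.65 FPKM (difference of log2 changes -3.36, adjusted p = 0.000295). Polr2c, a subunit of RNA polymerase II, had 22.3 to 41.6 FPKM against 10.5 to 15.5 FPKM in NP and 23.3 to 30.9 FPKM against 1.63 to 1.87 FPKM in P (-2.58, adjusted p = 0.0171, but 0.0574 with the NP and P library of one replicate as a block). Dppa3, a maternal factor that protects DNA methylation, had 299, 327 and 276 FPKM against 217, 215 and 129 FPKM in NP, but 42.8, 28.5 and 42.2 FPKM against 142, 131 and 168 FPKM in P (2.69, adjusted p = 0.00846). H3f3b, for histone H3.3, had 250.1, 239.8 and 245 FPKM against 197, 199.9 and 164 FPKM in NP and 29.4 to 34.7 FPKM against 74.8 to 95.4 FPKM in P (1.76, adjusted p = 0.00268).

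**Figure D5:**
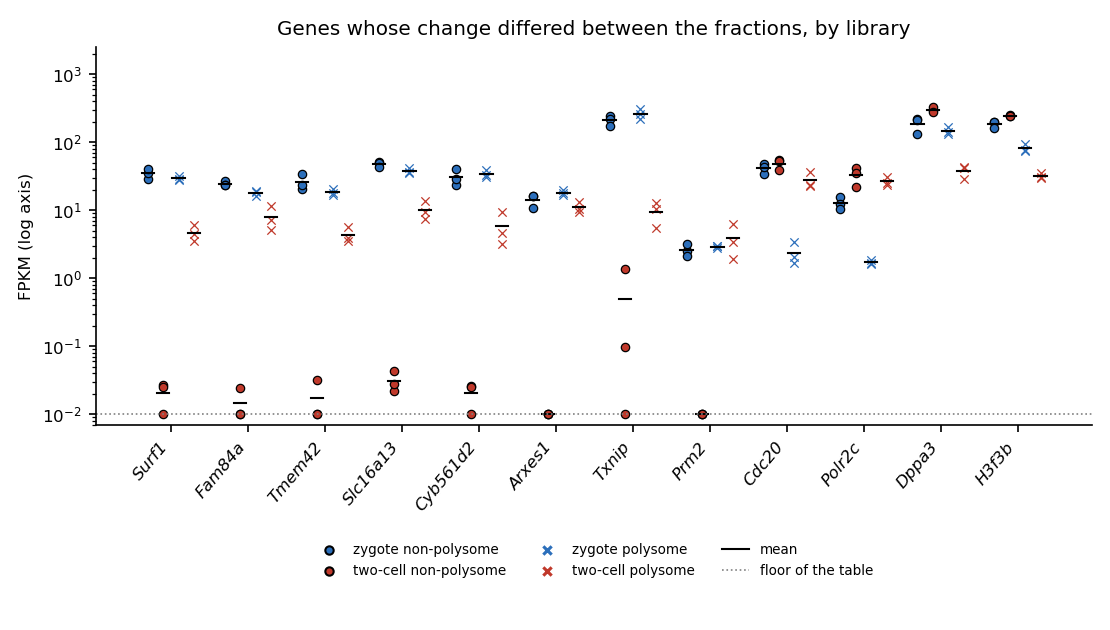
FPKM on a log axis in the 3 libraries of each stage and fraction for genes whose change differed between NP and P. The two-cell NP points of Surf1, Tmem42 and Slc16a13 sit near the floor while their two-cell P points lie above 3 FPKM, and Dppa3 and H3f3b are lower in two-cell P than in zygote P.

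Markers of other cells moved with the stage in some cases. Of 15 cumulus and granulosa genes none passed the minimum, and their sum was 8.28 to 69.2 FPKM in two-cell NP and 0.0115 to 1.19 FPKM in zygote NP. The highest value came from two-cell B alone, where Hsd3b1 had 34.7 FPKM, Inha 20.1 and Cyp11a1 14.4, each at or near the floor in two-cell A and C. In two-cell A and C the sum came mainly from Amhr2, the receptor of anti-Müllerian hormone, with 11.8 and 8.29 FPKM, against 0.0182 in two-cell B and at most 0.0267 in zygote NP. Has2, Fshr and Star were at the floor in all 6 libraries. Of 4 red blood cell genes, Hba-a1, an alpha globin with a near-identical copy, had 159.5, 97.3 and 129 FPKM in two-cell NP and at most 0.0940 in zygote NP (adjusted p = 4.58e-05). Its copy Hba-a2 had 2.37 to 2.64 FPKM, while the beta globins Hbb-bs and Hbb-bt were at the floor in all two-cell NP libraries, and the list sums were 99.6 to 162 FPKM against 0 to 0.821. Of 9 sperm genes, Prm2, a protamine, was at the floor in two-cell NP against 2.52, 2.11 and 3.22 FPKM (adjusted p = 2.75e-10), and Oaz3 was lower too, at 0.0435 FPKM or less against 0.199 FPKM or more (adjusted p = 0.00534). Tssk6, a testis kinase that did not pass the minimum, had 9.76 FPKM in two-cell C, the floor in two-cell A and B and at most 1.08 FPKM in zygote NP. The list sums overlapped in NP, with 0.218 to 10.7 FPKM against 2.86 to 5.56 FPKM, and did not in P, with 10.9 to 15.2 FPKM in two-cell embryos against 4.25 to 4.72 FPKM in zygotes. Of 8 oviduct genes none passed, and 7 had at most 0.0650 FPKM in these libraries, the exception being Epcam at 4.55 FPKM in two-cell B. The part of these cells in the other results was not tested.

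The genes that rose were shorter than the others. By the union of their exons in GENCODE M21, the genes called higher had a median of 1465 bases and those called lower 3465 bases, against 3092 over all tested genes with a length. In protein-coding genes the share called higher was 14.6% in the shortest of 5 equal groups (231 to 1997 bases) and 5.68%, 2.60%, 2.13% and 1.89% in the next ones. The median change was -0.87 in the shortest group and -2.27 to -1.77 in the others. Under quantile normalization it was -0.20 in the shortest group, -0.76 to -0.30 in the next 3 and 0.76 in the longest. The genes called higher in P were short as well, with a median of 1340 bases. Ribosomal protein, Sm and small polymerase genes are short, so length moved with those lists, and its part in their change was not tested. By biotype, 41.7% of 48 unprocessed pseudogenes and 11.1% of 891 processed pseudogenes were called higher, beside 5.39% of 6400 protein-coding genes.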

How the data were processed

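RNA from pooled gradient fractions was amplified with SMART-seq v4 and sequenced. Per the labels and the study's methods, the authors trimmed reads with Trim Galore 0.4.1, mapped them with STAR 2.5.3a to GRCm38 and quantified genes as FPKM with Partek. The deposited table gives normalized FPKM for 23125 genes in 36 libraries, with 0.01 in every value. The methods name RefSeq genes, whereas the annotation columns match GENCODE M21 positions for 20777 of 22193 shared symbols. Reads and counts were not used here, so a gene at the floor cannot be told from one that was not captured.

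Titles gave each library its stage, fraction and letter. The methods take NP and P from one gradient and use the letter for the replicate, so both libraries of a stage and letter are paired; the fit, as planned, has no such block, and a block was an alternative. limma 3.58.1 (R 4.3.3) estimated 12 group means from the log2 FPKM of the 36 libraries, with no further constant added (trend, empirical Bayes, two-sided tests, Benjamini-Hochberg adjustment over 7967 genes). All 12 groups share one estimate of the spread. The two-cell NP libraries spread most (median within-gene SD 1.64 on the log2 scale, against 0.45 for zygote NP and at most 1.37 in any other group). A shared estimate does not carry this difference, so p-values can be too small for genes that vary in two-cell NP. A fit of the 6 libraries alone, which has fewer libraries to estimate the spread, called 1774 genes against 2723. For a single gene, a log2 fold change is given where the lower group had about 1 FPKM or more, since the added 0.01 sets it for lower genes; medians of lists hold such genes too. The sums of a list subtract the floor.

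The members and lists were chosen with earlier results of these data known. Genes were named by rule: the 8 strongest rises and 8 strongest falls of called protein-coding genes that reached a mean of 10 FPKM without overlap, and from each list up to 4 called with the smallest adjusted p and up to 2 not called with the highest mean, at 5 FPKM or more. Others named are lists' small counts and genes whose fractions differed, chosen after their values were seen. Alternatives were added constants of 0.1 and 1, no minimum, a minimum of 1 FPKM, quantile normalization, median centring, array weights, protein-coding genes only, fewer libraries, a replicate block and leaving out each replicate. Some genes are not reported here. The scripts were tested on simulated data. Python 3.11.15 with numpy 2.4.6, pandas 2.3.3, scipy 1.17.1 and matplotlib 3.10.9 was used.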

Additional observations from a re-analysis of the deposited data

Results flagged for a closer look

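The change from zygote to two-cell differed between the NP and P fractions, by limma's test of the difference with Benjamini-Hochberg adjustment over 7967 genes, for 12 of the genes described above in the fit without a replicate block. Over all genes tested, 13 (0.163%) had a higher change in NP and 101 (1.27%) a lower one. Txnip, Surf1, Fam84a, Tmem42, Slc16a13, Cyb561d2 and Arxes1 were named for large NP falls, which enter this contrast. Some of the others were named after their values were seen, so the 12 are not a sample picked beforehand. The change was lower in NP for Tmem42 (adjusted p = 4.73e-07), Prm2 (1.32e-06), Fam84a (2.24e-05), Slc16a13 (0.000116), Cdc20 (0.000295), Surf1 (0.00184), Polr2c (0.0171), Txnip (0.0246), Arxes1 (0.0335) and Cyb561d2 (0.0342). With the NP and P library of one replicate as a block, 3 of these missed the threshold, Polr2c (0.0574), Arxes1 (0.0641) and Cyb561d2 (0.0652), and the other 9 of the 12 passed (at most 0.0240). The change was higher in NP for H3f3b (0.00268) and Dppa3 (0.00846). In 7 of the 10 genes with a lower change all two-cell NP libraries had at most 0.0438 FPKM, Txnip had 1.38 FPKM in two-cell A, and in Cdc20 and Polr2c all of them were above 20 FPKM. Prm2 had 1.94, 6.30 and 3.41 FPKM in two-cell P and 2.77 to 3.0 FPKM in zygote P. Groups of 3 libraries were too small to test single libraries as outliers.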

How the results depend on the processing

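The count of genes called between two-cell NP and zygote NP, 2723, was 1774 in a fit of the 6 libraries alone, 917 with a minimum of 1 FPKM and 4161 with none, and 2010 to 2886 when 1 library was left out. The count for the difference between NP and P, 114, was 365 in a fit of the 12 libraries of both stages, 179 with array weights, 71 with median centring, 44 with a minimum of 1 FPKM, 198 with 1 added to each FPKM, and 40 to 295 when 1 library was left out. The 198 were 107 with a higher change in NP and 91 with a lower one, against 13 and 101 in the main fit, so the balance turned. The other alternatives kept both counts within 1.5 times. Genes above 0.1 FPKM differed by -3478.8 to -2859 when 1 library was left out, and by -581 at a minimum of 1 FPKM. With the replicate block the counts were 2351 and 101. No label says that the letters pair samples across stages. The residuals of the same-lettered libraries B and C correlated at 0.0627 and 0.0564, above those of all other pairs at -0.0810 to 0.0336. All these correlations were weak, so they do not settle whether the letters pair samples across stages. Within a stage, where the letter names the replicate whose gradient gave both fractions, residuals of NP and P libraries correlated at 0.00493 to 0.138 for the 6 pairs of one letter and at -0.119 to 0.0317 for the 12 pairs of other letters. With stage and letter as a block, chosen after seeing the data, the difference was called for 85 genes, without Polr2c, Cyb561d2 and Arxes1. Why these counts move was not tested, beyond the number of genes or libraries that a setting leaves.

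Of 76 called genes chosen by the naming rule, some not described above, 65 kept the call whichever library was left out. Under every alternative fitted 49 kept it, and none changed sign. Called genes named outside that rule are not in this tally. Among them Zscan4d, Gtf2b, Pabpc1, Rpl11, Ccna2, Tcf3, Ctnnb1, Zfas1, Hspa14 and Hsph1 each lost the call without at least 1 library. Of the genes chosen by the rule but not called, 8 passed with median centring, 7 each under quantile normalization and in the fit of 6 libraries, 6 with either added constant and 4 with array weights. With median centring these genes that had not been called turned positive: Pttg1 (1.11), Btg4 (1.11), Mapk3 (0.80), Phf5a (0.79), Eif6 (0.79), Srsf2 (0.78), Cox5b (0.75), Klf17 (0.45), Ndufb11 (0.41), Polr2g (0.36), Pold2 (0.30) and Dnajb1 (0.016). Under quantile normalization Zbed3 (-0.86) and Imp3 (-0.24) turned negative. With the block Pttg1 was at 0.061. Leaving out a library gave -0.25 to 0.34 for Pttg1, -0.43 to 0.58 for Btg4, -0.060 to 0.47 for Imp3 and -1.0 to 4.50 for Snhg5. Differences among the two-cell NP replicates limit the reading of any single low value there, and their cause was not tested.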

Other observations

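The NP levels of several of these genes moved in other ways at the stages around the comparison (means ± SD, n = 3 each). Rpl41 had 206 ± 31.4 FPKM in GV oocytes and 138 ± 4.29 in MII oocytes, 11.5 ± 3.10 in zygotes, 15.6 ± 13.2 in zygotes in M-phase, 268 ± 4.91 in two-cell embryos and 2897 ± 416 in two-cell embryos in M-phase. Mt1 was at 0.476 ± 0.348 FPKM in GV and 2.32 ± 0.199 in MII oocytes, 2.63 ± 1.11 in zygotes, 0.530 ± 0.129 in zygotes in M-phase, 774 ± 60.1 in two-cell embryos and 1045 ± 66.9 in two-cell M-phase. Obox8 had 0.0487 ± 0.0375 FPKM in GV oocytes, was at the floor in MII oocytes, and had 70.9 ± 19.4 FPKM in two-cell embryos and 76.4 ± 19.8 in two-cell M-phase. Ooep had 528 ± 59.0 FPKM in MII oocytes, 1521 ± 101 in zygotes, 115 ± 10.0 in zygotes in M-phase and 125 ± 56.2 in two-cell embryos. Zar1 went from 319 ± 72.0 FPKM in zygotes to 64.9 ± 14.9 in zygote M-phase, 13.4 ± 5.11 in two-cell embryos and 0.573 ± 0.288 in two-cell M-phase. M-phase embryos had been treated with nocodazole, and these steps were not tested.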
